A study of Schizosaccharomyces pombe with 32 samples.

Results

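When fission yeast runs out of nitrogen, cells of one mating type answer the peptide pheromone of the other. The comparison described here asks what still moved in the transcriptome once that answer was under way. It sets the 4 arrays at 7 and 8 h after nitrogen removal with P-factor against the 4 arrays at 5 and 6 h with P-factor, 8 of the 32 arrays of the series. Arrays were chosen by their labelled hour and treatment alone. All 16 arrays with P-factor used Schizosaccharomyces pombe strain CRL672, placed in nitrogen-free minimal medium with 0.5 µg/ml synthetic P-factor, and the 16 without it used strain L972 in the same medium. Strain and pheromone changed together and cannot be told apart, and the labels give neither genotype nor mating type. Each array carried polyA RNA of starved cells in Cy5 and, in Cy3, RNA of its own strain during growth, 2 arrays for each hour from 1 to 8 h in either condition. The 2 arrays of an hour come from 2 array series, called replicate 1 and replicate 2 here after the array numbers in the labels.

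P-factor is released by P cells and sensed by M cells through the receptor Mam2, a G protein and a MAP kinase cascade that act with the transcription factor Ste11. In meiotic prophase, which follows mating, telomeres gather at the spindle pole body in a bouquet, held there by Bqt1 and Bqt2, and dynein pulls the nucleus back and forth in the horsetail movement. Nitrogen starvation also turns on genes that recover nitrogen from bases and amino acids. Some of the genes below come from these programmes and others do not.

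Every level below is the log2 of the starved signal over the growth signal after each array was centred on its median, and every change is a difference of such ratios, so a change of 1 is 2-fold. Errors given after ± are standard errors of the limma model unless marked otherwise, and a gene is called at an adjusted p below 0.05 over the 4810 genes tested. A bulk ratio does not separate more RNA per cell from more cells that respond. Arrays have no read depth, so precision is limited by how many there are. The labelled response was checked on M-cell and P-cell markers. The P-factor receptor gene mam2 stood at 7.68 to 9.14 on the arrays at 5 and 6 h and at 8.74 to 9.49 on those at 7 and 8 h. The M-factor precursor gene mfm1 stood at 7.75 to 9.50 and 8.76 to 9.69, while map3, the M-factor receptor gene of P cells, lay between -0.48 and 0.23 and then between -0.05 and 0.55. The other P-cell markers listed, map2, mat1-Pc and mat1-Pi, were not among the genes tested. Of 3 measured P-cell mating genes, 1 was called higher from 1 to 4 h to 5 and 6 h. Over all genes 20.3% were. On the list of M-cell markers, mfm3, mam1, mat1-Mc and mat1-Mi were also measured, and all 4 were above growth on all 8 arrays. The P-factor protease gene sxa2 of M cells, not on that list, was not, with values from -1.05 to -0.30 at 5 and 6 h and from -0.47 to 0.02 at 7 and 8 h. The mfm genes code for the same peptide and the mat1 genes have silent copies, so their probes may read more than 1 gene.

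Few genes were called at 7 and 8 h against 5 and 6 h. In limma's moderated test, 26 of 4810 genes were called, 0.541%, with 17 higher (0.353%) and 9 lower (0.187%) at 7 and 8 h, and 13 of them changed at least 2-fold. The 2 preceding windows of the same width had called 815 genes (16.9%) for 3 and 4 h minus 1 and 2 h and 535 genes (11.1%) for 5 and 6 h minus 3 and 4 h. Neighbouring windows share arrays. Without P-factor the late window called 0 genes (0%), with 337 at an unadjusted p below 0.05 against 595 with P-factor, and the window before it called 59 (1.23%). The difference between the conditions in the late window was itself tested and called 0 genes (0%), with 278 at an unadjusted p below 0.05, so no late change below is shown to be particular to the P-factor arrays. The smallest adjusted p of that test was 0.0953, for mug14.

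**Figure D1:**
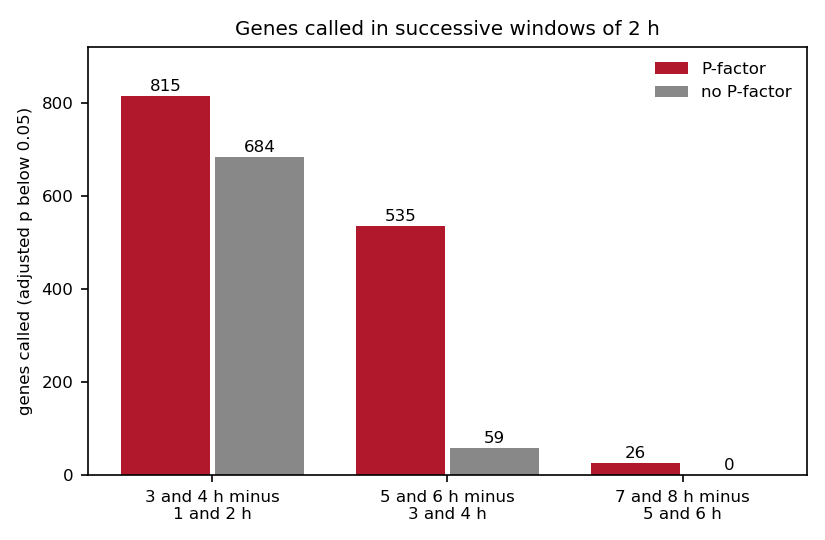
Number of genes called in limma (vertical axis) in 3 successive windows of 2 h, with P-factor in red and without it in grey, over 4810 genes. The count with P-factor goes from 815 through 535 to 26, and the count without it from 684 (14.2%) through 59 to 0.

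The count of 26 depended on single arrays. Without replicate 1 there were 35 calls and without replicate 2 there were 11, the arrays without P-factor being kept for the estimate of the spread. Leaving out replicate 1 at 5 h gave 65 calls, at 6 h 4, at 7 h 47 and at 8 h 4, and leaving out replicate 2 gave 8, 4, 6 and 12 at the same hours. With only the 8 compared arrays and the series as a fixed term, 3 genes were called, namely urg2, isp5 and SPCC1739.08C. All 26 genes kept one sign in both series, and in 19 of them the 4 late arrays did not overlap the 4 earlier ones. They were called on these same arrays, so both traits follow in part from the call. Of the 4810 genes, 1661 were higher and 1234 lower in both series. Over all genes 176 lay wholly higher (3.66%), and 3.24% lay wholly lower.

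**Figure D2:**
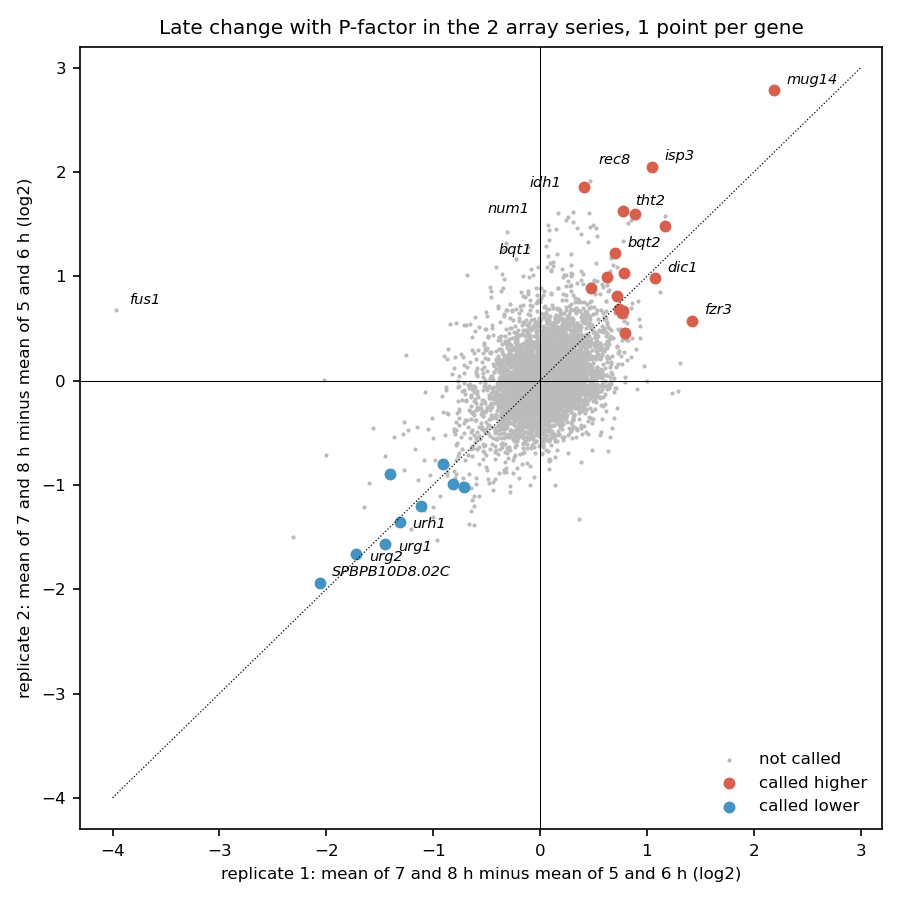
Change from 5 and 6 h to 7 and 8 h in replicate 1 (horizontal axis) and replicate 2 (vertical axis), both on the log2 scale, 1 point per gene, with called genes coloured by direction and the dotted line marking equal change. Called genes lie at the upper right and lower left, while fus1 stands alone at -3.96 in replicate 1 and 0.68 in replicate 2.

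The largest late rise was that of mug14, a gene named for its rise in meiosis. It stood at 3.81 and 5.44 at 5 and 6 h in replicate 1 and at 2.49 and 4.48 in replicate 2, and at 7 and 8 h it reached 6.63 and 7.02 and then 6.86 and 5.69. All 4 late arrays were above all 4 earlier ones. The change was 2.49 ± 0.38, or 5.62-fold (limma, adjusted p = 0.0027), with 2.19 in replicate 1 and 2.79 in replicate 2. Without P-factor the same window gave -0.38, and no array of any hour passed 2.64. The call held in 9 of the 10 fits that leave out a series or an array and was lost without replicate 2.

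Among the bouquet genes, bqt2 was called in the late window. Its level was 0.39 and 0.54 at 5 and 6 h in replicate 1 and 0.29 and 0.28 in replicate 2, inside the range of -0.46 to 1.08 seen from 1 to 4 h. At 7 and 8 h it was 0.72 and 1.61 in replicate 1 and 1.03 and 2.00 in replicate 2, above every array at 5 and 6 h and highest at 8 h in both series. The rise was 0.96 ± 0.20 (limma, adjusted p = 0.0233), against -0.25 without P-factor, and the difference between the conditions was 1.21 with an adjusted p of 0.256. The change before, from 1 to 4 h to 5 and 6 h, was 0.02 (adjusted p = 0.93). The bqt2 call was lost in 8 of the 10 fits without a series or an array, and held without replicate 1 at 5 h and without replicate 1 at 7 h.

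Its partner gene bqt1 had already risen by 2.52 ± 0.25 from 1 to 4 h to 5 and 6 h, where it stood at 3.13 and 3.30 in replicate 1 and 1.34 and 1.95 in replicate 2. The late arrays read 3.03 and 3.71 in replicate 1, near its earlier level, and 2.82 and 2.90 in replicate 2, above it. The late change of 0.68 ± 0.25 did not pass (adjusted p = 0.222) and split into 0.16 and 1.21 by series.

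Of the dynein genes of horsetail movement, dic1 was called. This intermediate chain gene dic1 stood at -0.30, 0.45, -0.63 and 0.59 at 5 and 6 h of replicates 1 and 2 and at 0.92, 1.38, 0.76 and 1.16 at 7 and 8 h. The groups did not overlap, and the rise was 1.03 ± 0.15, 2.04-fold (limma, adjusted p = 0.0027), with 1.07 and 0.98 in the 2 series and 0.02 without P-factor. Its call held without any single array and was lost without either series. The heavy chain gene dhc1 went from 0.88, 2.31, 1.15 and 2.46 to 1.73, 2.90, 2.75 and 3.04, and its change of 0.90 ± 0.21 fell just outside the threshold (adjusted p = 0.0516). The dynein anchor gene num1 changed by 0.89 (0.17 and 1.61 by series, adjusted p = 0.107) and ssm4, for a dynactin subunit, by 0.97 (0.31 and 1.62, adjusted p = 0.116). Other dynein genes did not share a rise in both series. The gene dli1 changed by 0.32 (-0.09 and 0.72 by series), dlc2 by 0.34 (-0.18 and 0.85) and dlc1 by -0.09 (-0.07 and -0.11), none called.

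The telomere and spindle pole partners of the bouquet gave no calls. The telomere binding gene taz1 changed by 0.00 ± 0.16, rap1 by -0.07 ± 0.28, the nuclear envelope gene kms1 by 0.00 ± 0.17 and sad1, for a spindle pole body protein, by 0.29 ± 0.19. The list for telomeres, bouquet and horsetail movement does not hold dic1. Of its 18 measured genes, 1 was called higher (bqt2) and 0 lower, where 0.353% and 0.187% of all genes were. The list's median was 0.21 against 0.03 over all genes. In the step before, from 1 to 4 h to 5 and 6 h, 13 of the 18 had been called higher, where 20.3% of all genes were.

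Against 5 h alone, without the 6 h arrays, the late arrays called 83 genes (1.73%), 58 higher and 25 lower, and 24 of the 26 genes above were among them. There dhc1 was higher by 1.59 ± 0.26 (limma, adjusted p = 0.00275) and num1 by 1.44 ± 0.31 (adjusted p = 0.0221). So were 4 of 27 recombination genes, where 58 of all 4810 genes were. Among the 4, rec8, for the meiotic cohesin, was higher by 1.84 ± 0.43 (adjusted p = 0.0335) and rec25 by 1.33 ± 0.29 (adjusted p = 0.0207). Of the fusion genes 3 of 16 were higher, with dni1, for a membrane protein of cell fusion, at 1.99 ± 0.35 and tht1, for nuclear fusion, at 1.22 ± 0.28. Against 6 h alone 0 genes were called, with 258 at an unadjusted p below 0.05. None of the 3 single steps of 1 h called a gene, with 4.41%, 4.64% and 3.43% of genes at an unadjusted p below 0.05 for 6 minus 5 h, 7 minus 6 h and 8 minus 7 h.

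**Figure D3:**
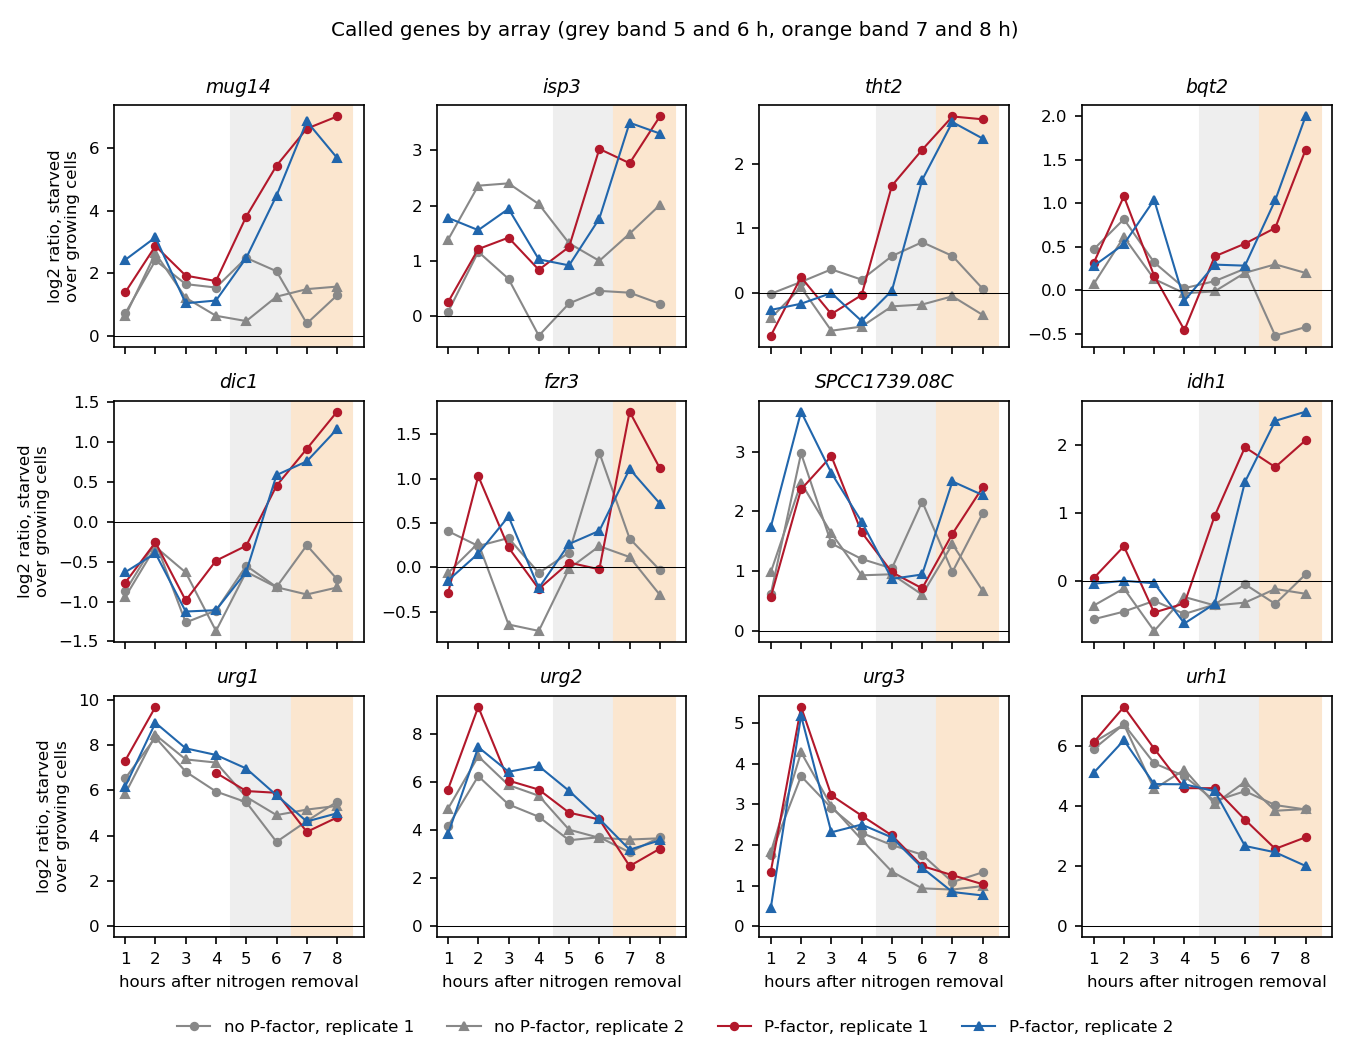
Log2 ratio, starved over growth (vertical axis), by hour after nitrogen removal (horizontal axis) for 12 called genes, 1 point per array, P-factor replicates in red and blue, arrays without P-factor in grey, the grey band marking 5 and 6 h and the orange band 7 and 8 h. The gene bqt2 reaches 1.61 and 2.00 at 8 h, and urg1, urg2, urg3 and urh1 have lower means in the orange than in the grey band after their highest values at 2 h.

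Called rises were also seen in 1 spore gene and 1 fusion gene. The spore wall gene isp3 stood at 1.25 and 3.02 at 5 and 6 h in replicate 1 and at 0.92 and 1.77 in replicate 2, and at 2.76 and 3.61 and then 3.49 and 3.30 at 7 and 8 h. Replicate 1 at 6 h lay inside the late range, so the groups overlapped. The rise was 1.55 ± 0.35 (limma, adjusted p = 0.038), with no called change before. The other 23 measured sporulation genes were not called, and the list's median was 0.09. Among them the septin gene spn7 changed by 0.76 ± 0.21 (adjusted p = 0.0925) with no overlap between the groups, and mde10 by 0.75 ± 0.21 (adjusted p = 0.102).

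Over all genes 0.353% were called higher and 0.187% lower. In the fusion list 1 of 16 genes was called higher and 0 lower, with a median of 0.21. This was tht2, at 1.66, 2.22, 0.03 and 1.75 at 5 and 6 h of replicates 1 and 2 and at 2.73, 2.69, 2.64 and 2.39 at 7 and 8 h. Its rise was 1.20 ± 0.23 (limma, adjusted p = 0.0209), after a called rise of 1.62 before. The formin gene fus1, which builds the actin structure of cell fusion, parted the 2 series. It read 3.09 and 3.99 at 5 and 6 h in replicate 1 and -0.30 and -0.55 at 7 and 8 h, but 2.80 and 3.74 and then 4.27 and 3.61 in replicate 2. Its mean change of -1.64 ± 0.69 was not called (adjusted p = 0.321), and it was called lower with replicate 1 alone.

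**Figure D4:**
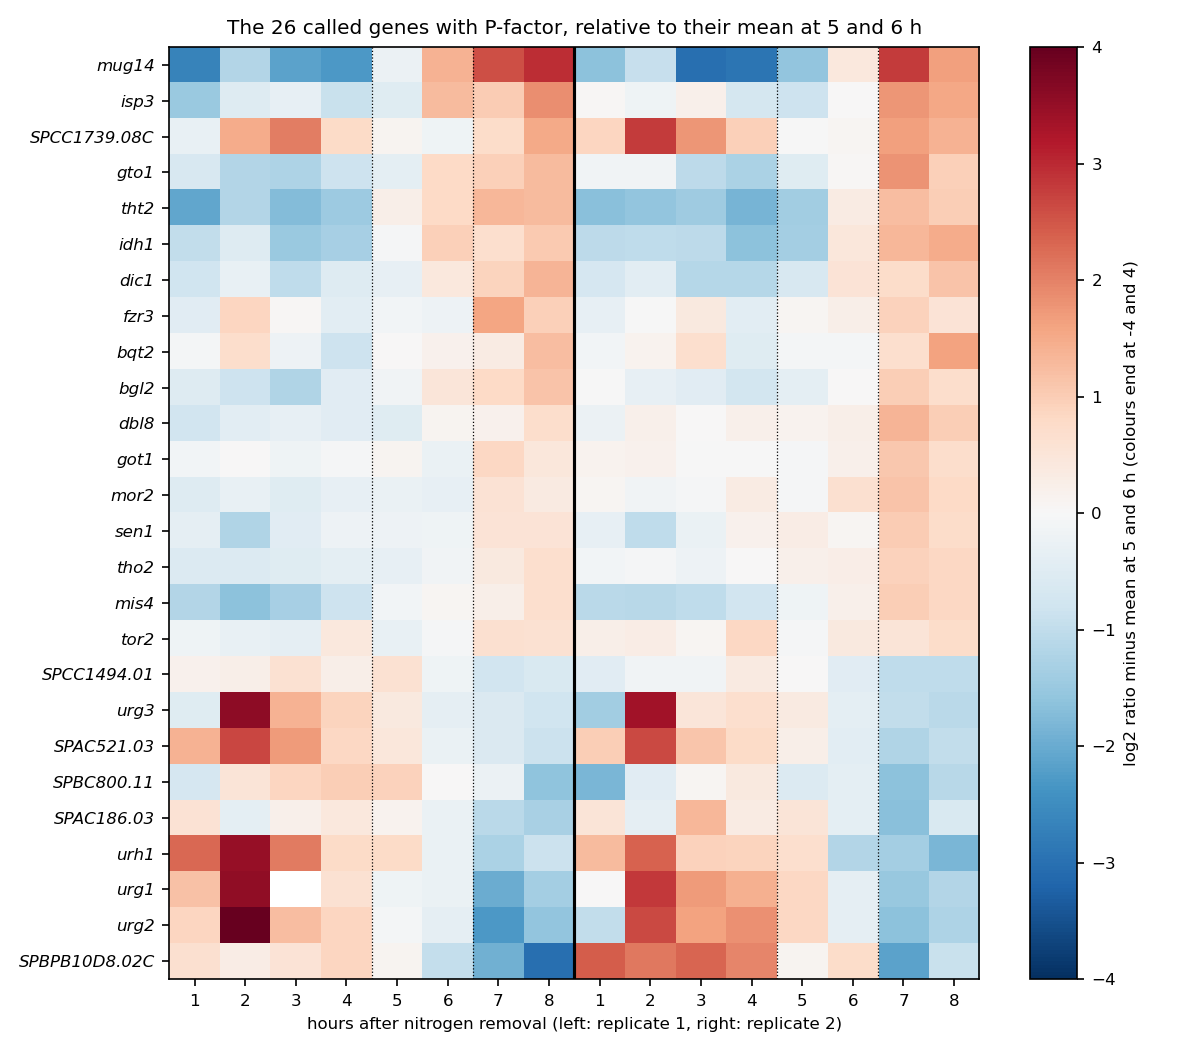
The 26 called genes (rows, by late change) on the 16 P-factor arrays (columns, hours 1 to 8 of replicate 1 on the left and replicate 2 on the right), coloured by log2 ratio minus the gene's mean at 5 and 6 h, with a missing value in white and dotted lines around 5 and 6 h. The rows of urg1, urg2 and urh1 are darkest red at 2 h and blue at 7 and 8 h.

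The remaining late rises were of genes of several functions. The mitochondrial isocitrate dehydrogenase gene idh1 rose by 1.14 ± 0.22 (limma, adjusted p = 0.0209), by 0.41 in replicate 1 and 1.86 in replicate 2. Its levels were 0.96, 1.97, -0.34 and 1.46 at 5 and 6 h and 1.67, 2.07, 2.36 and 2.49 at 7 and 8 h, so the groups overlapped. Of 18 citric acid cycle genes it alone was called, where 0.541% of all genes were, and the list's median was -0.02. The gene fzr3, for an activator of the anaphase-promoting complex, went from 0.06, -0.02, 0.27 and 0.41 to 1.75, 1.12, 1.11 and 0.72, all 4 late arrays being higher, a rise of 1.00 ± 0.21 (adjusted p = 0.0241). It lies within mug163, a gene on the other strand that changed by -0.09, and no source used here states which strand the probes read. The gene gto1 rose by 1.25 ± 0.24 and the cell wall glucanase gene bgl2 by 0.91 ± 0.20, both after called rises of 0.81 and 0.56.

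A further set of called genes rose by less than 1. It held dbl8 (0.81), the Golgi transport gene got1 (0.77), the polarity gene mor2 (0.72), the RNA helicase gene sen1 (0.71), tho2 (0.70), for a subunit of the THO complex of mRNA export, mis4 (0.68), for the cohesin loader, and tor2 (0.63), for the kinase of the growth-promoting TOR complex. For tor2 the window without P-factor gave 0.38 and the difference between conditions was 0.24 (adjusted p = 0.989). The tor2 call was lost in each of the 10 fits without a series or an array. The gene SPCC1739.08C alone fell before it rose. It stood at 0.57 to 3.67 from 1 to 4 h, 0.71 to 0.98 at 5 and 6 h, and 1.63 to 2.50 at 7 and 8 h, a rise of 1.32 ± 0.30 (adjusted p = 0.038) after a called fall of 1.30.

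Genes named mug or meu, from screens for genes raised in meiosis, made up 6 of the 17 called higher, counting earlier names (bqt2 is also mug18, dic1 mug44, fzr3 mug55, tht2 mug22 and isp3 meu4). That is 35.3%, where 4.10% of the genes tested carry such a name, and 0 of the 9 called lower do. Of the 91 genes whose current name is mug, 1 was called higher and 0 lower, where 0.353% and 0.187% of all genes were. Their median was 0.04.

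Of the 9 called falls, 4 were of named genes that use uracil and uridine. The uracil-regulated genes urg2, urg3 and urg1 are consecutive protein-coding genes on chromosome I in the RefSeq assembly ASM294v3, and all 3 were called. At 5 and 6 h urg2 stood at 4.72 and 4.43 in replicate 1 and 5.62 and 4.45 in replicate 2, and at 7 and 8 h at 2.50 and 3.22 and then 3.18 and 3.57. No late array reached an earlier one, and urg2 fell by 1.69 ± 0.35 (limma, adjusted p = 0.0233), or 3.23-fold. The gene urg1 stood at 5.98, 5.90, 6.97 and 5.79 and then at 4.17, 4.81, 4.63 and 4.99, again without overlap, and fell by 1.51 ± 0.30 (adjusted p = 0.0222). With quantile normalization the change of urg1 was -0.97 and was not called. The gene urg3 fell by 0.86 ± 0.19 (adjusted p = 0.0369).

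The uridine hydrolase gene urh1, on chromosome II, stood at 4.61, 3.56, 4.51 and 2.68 at 5 and 6 h and at 2.58, 2.97, 2.47 and 2.01 at 7 and 8 h. Replicate 2 at 6 h was as low as the late arrays, and replicate 1 at 8 h was above it. The gene fell by 1.33 ± 0.22 (adjusted p = 0.0071), by 1.31 and 1.35 in the series, and its call was lost in 1 of the 10 fits, without replicate 1 at 6 h (adjusted p = 0.0541), and with quantile normalization. All 4 genes had already fallen, by 1.55, 1.62, 1.06 and 1.76 for urg2, urg1, urg3 and urh1, from 1 to 4 h to 5 and 6 h. Their highest arrays were those at 2 h, where urg1 reached 9.70 in replicate 1. Without P-factor the late window gave -0.23, 0.20, -0.43 and -0.47 for the same 4 genes, and the difference between conditions passed for none (adjusted p = 0.499, 0.343, 0.936 and 0.603).

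Of the 10 measured genes of pyrimidine and purine breakdown and salvage, 4 were called lower and 0 higher. Over all genes 0.187% were called lower and 0.353% higher. The list's median was -0.68 (-0.61 in replicate 1, -0.79 in replicate 2 and -0.19 without P-factor), against 0.03 over all genes. The gene uck2 changed by -0.86 (adjusted p = 0.095) and the uracil permease gene fur4 by -0.50. The adenine phosphoribosyltransferase gene apt1 went the other way at 0.34. Of the genes outside the list, xan1, for xanthine breakdown, changed by -1.43 ± 0.35 (adjusted p = 0.057) and the uricase gene uro1 by -1.17 ± 0.40 (adjusted p = 0.194), both at least 2-fold in each series and both picked after their values were seen.

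The other called falls were of genes known by identifiers, and their functions are not described here. SPBPB10D8.02C fell most, by 2.00 ± 0.43 (adjusted p = 0.0279), from levels of 0.03, -1.05, 0.02 and 0.64 to -2.03, -3.12, -2.23 and -0.99. Its last late value lay just above the lowest earlier one, so the groups overlapped. It changed by -1.56 without P-factor as well, and the difference between conditions was -0.43 (adjusted p = 0.989). SPAC186.03 fell by 1.16 ± 0.24, SPBC800.11 by 1.15 ± 0.24, SPAC521.03 by 0.90 ± 0.17 and SPCC1494.01 by 0.85 ± 0.16. Within 100 kb of a chromosome end, 1 of 160 genes was called higher and 2 lower, where 0.353% and 0.187% of all genes were. The median of the 160 was -0.14. On the late arrays 19 of the 160 lay wholly lower and 3 wholly higher, where 3.24% and 3.66% of all genes did.

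No gene on the lists of nitrogen uptake and permeases or of vacuolar proteases was called. The permease gene isp5 changed by -1.11 ± 0.39 (adjusted p = 0.212), from 5.70 to 6.21 at 5 and 6 h to 4.64 to 4.99 at 7 and 8 h, without overlap. The proline permease gene put4 changed by -0.95 ± 0.28 (adjusted p = 0.118), and it was called lower with replicate 1 alone and without replicate 2 at 7 h. The protease gene isp6 was at 6.13 to 6.31 and then at 5.31 to 5.77, a change of -0.60 ± 0.16 (adjusted p = 0.0878). The list of nitrogen uptake and permease genes had 0 of 18 called and a median of -0.17. On the late arrays 2 of the 18 lay wholly lower, where 3.24% of all genes did.

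The late and earlier windows were set beside each other to separate genes that came late from genes that peaked and declined. Of the 17 genes called higher late, 8 had no called change before, from 1 to 4 h to 5 and 6 h. They were isp3, fzr3, bqt2, dbl8, got1, mor2, tho2 and tor2. The remaining ones were 8 that had risen already, 1.62 for tht2 and 2.10 for mug14 among them, and SPCC1739.08C, which had fallen. Of the 9 called lower, 6 had fallen before, 3 had no called change and 0 had risen, so no gene met the test for a rise followed by a fall. In the earlier step 1530 genes were called (31.8%), 975 higher and 555 lower (11.5%). The windows share the arrays at 5 and 6 h, so these counts are not independent of each other.

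A reading without shared arrays took the earlier change from one series and the late change from the other. The 237 genes higher by at least 1 in replicate 1 at 5 and 6 h than at 1 to 4 h, by value and not by a test, had a median late change of 0.49 in replicate 2, and 89.0% of them were above 0, against 52.3% of all genes. None of the 237 was lower by 1 or more. The genes lower by at least 1 in replicate 1, 3.10% of those tested, had a median of -0.42, with 13.4% above 0. Read the other way, the 167 genes higher in replicate 2 had a median of 0.21 in replicate 1 with 70.1% above 0, against 56.5% of all genes, and 4 of them were lower by 1 or more. Those lower in replicate 2, 3.14% of all, had a median of -0.24 with 24.5% above 0. Across the 4810 genes, which are not independent, the late changes of the 2 series correlated at r = 0.389 and rho = 0.318, where the earlier changes correlated at r = 0.733.

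The pheromone genes that led the earlier response stayed high. Of 24 measured genes of pheromone signalling and M-cell mating, 19 had been called higher at 5 and 6 h, where 20.3% of all genes were. The median change of the 24 was 2.27 in that step. In the late window 0 of them were called and the median was 0.34. The master regulator gene ste11 stood at 3.15, 3.17, 2.67 and 3.24 and then at 3.61, 3.66, 3.24 and 3.67, a change of 0.49 ± 0.15 (adjusted p = 0.134) with 0.48 and 0.50 in the series and 0.39 without P-factor. Its late arrays were all above the earlier ones. The M-factor genes mfm1 and mfm3 changed by 0.40 ± 0.43 and 0.43 ± 0.52 and the receptor gene mam2 by 0.61 ± 0.39, none called. The Ras regulator gene gap1 changed by 1.00 ± 0.25 (adjusted p = 0.0652), without overlap, and rgs1, which damps the G protein signal, by 0.80 (0.15 and 1.45 by series).

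Lower late values in this group were few and none was called. The gene byr2, for a MAP kinase kinase kinase, changed by -0.40 ± 0.19 (adjusted p = 0.382), with -0.36 and -0.45 in the series, and ste20 by -0.68 and -0.05. The agglutinin gene mam3 stood at 6.12 and 6.67 at 5 and 6 h and 4.95 and 6.05 at 7 and 8 h in replicate 1, but at 6.34 and 6.69 and then 6.61 and 6.89 in replicate 2. The G protein gene gpa1 changed by 0.01 ± 0.33 and the P-factor protease gene sxa2 by 0.34 ± 0.17. In all, 5 of the 24 genes lay wholly higher on the late arrays and 0 wholly lower. Over all genes these shares were 3.66% and 3.24%.

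Recombination genes were higher on the late arrays mainly in replicate 2. The list of 27 genes had 0 called in the late window, against 19 called higher before it, where 20.3% of all genes were. Its median level over members was 1.17 and 1.28 at 5 and 6 h and 1.28 and 1.69 at 7 and 8 h in replicate 1, and 0.61, 0.99, 1.75 and 1.85 in replicate 2. At 5 and 6 h replicate 2 was the lower series, and at 7 and 8 h the higher one. The median change was 0.11 in replicate 1, 0.83 in replicate 2 and -0.02 without P-factor. The cohesin gene rec8 stood at 3.22, 4.23, 1.47 and 3.07 and then at 3.45, 4.93, 4.67 and 3.70, a change of 1.19 ± 0.35 (adjusted p = 0.116). The gene rec25, for a component of the meiotic chromosome axis, changed by 1.00 ± 0.23 (adjusted p = 0.0512), with all late arrays above the earlier ones, and rec12, for the protein that breaks DNA to start recombination, by -0.32 in replicate 1 and 1.32 in replicate 2.

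Regulators of meiosis gave no calls. The meiotic inducer gene mei2 stood at 6.72 to 7.60 and then at 7.31 to 7.50, a change of 0.15 ± 0.44. The transcription factor gene mei4 changed by -0.02 in replicate 1 and 1.09 in replicate 2, the kinase gene mek1 by 0.22 and 0.83 and the axis gene hop1 by -0.39 and 0.71. The 18 regulators had a median of 0.12.

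**Figure D5:**
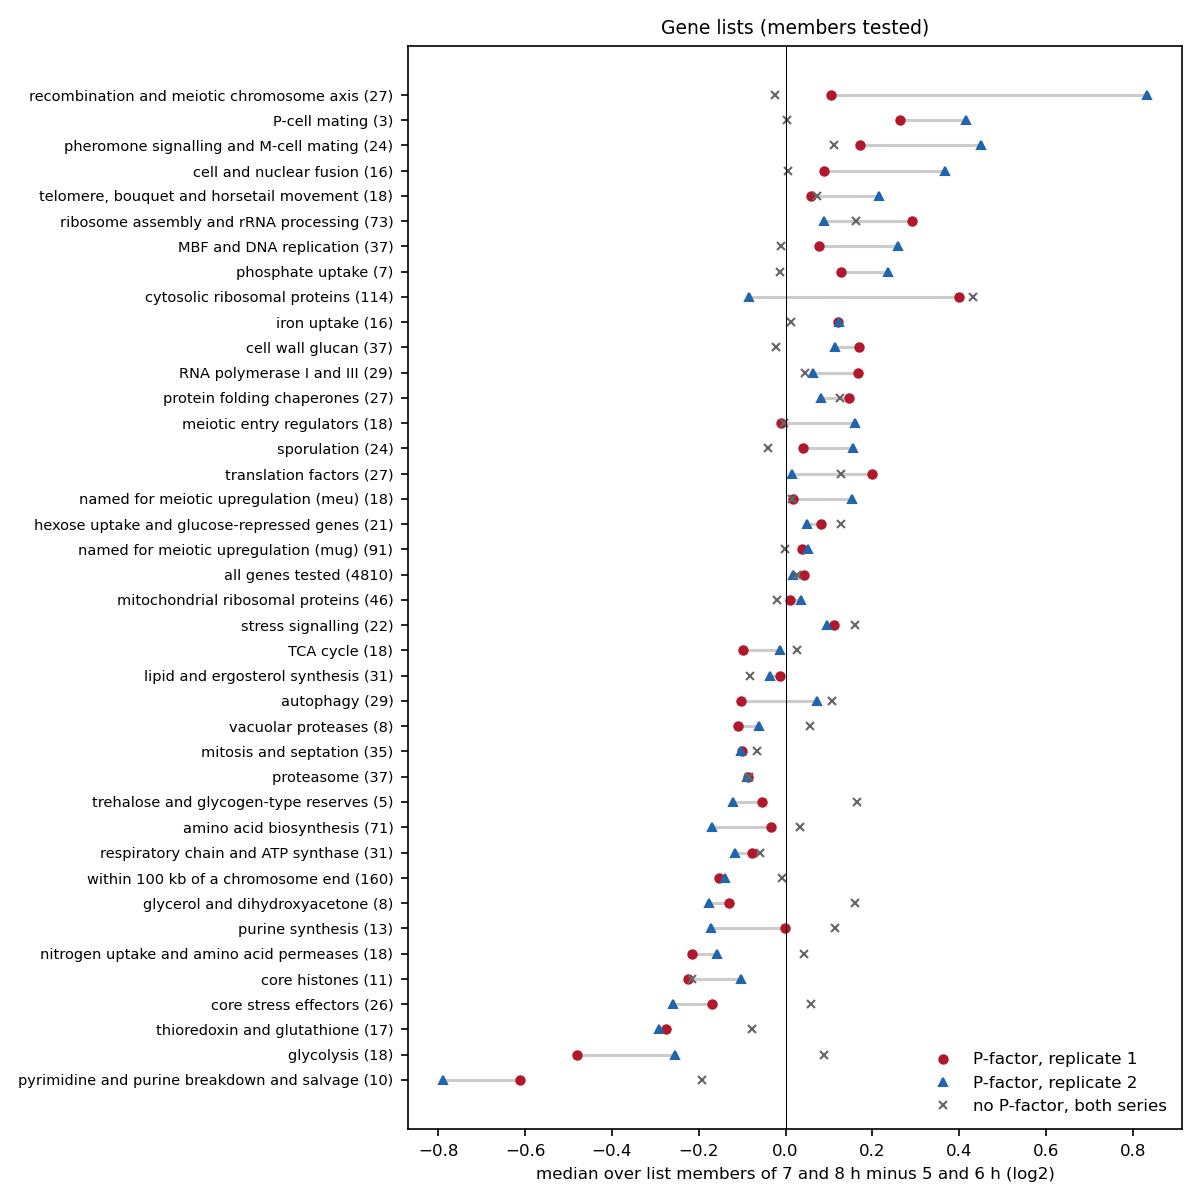
Median change from 5 and 6 h to 7 and 8 h on the log2 scale (horizontal axis) over the tested members of each gene list (rows, number of members in parentheses), with P-factor in replicate 1 (red circles) and replicate 2 (blue triangles) and without P-factor (grey crosses). Recombination genes lie at 0.11 and 0.83, base breakdown genes at -0.61 and -0.79 and glycolysis genes at -0.48 and -0.25, with all genes tested near 0.

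Most glycolysis genes had lower values on the late arrays, without any call. Of 18, 0 were called, 14 were negative and 3 positive in both series, and the median was -0.41, with -0.48 and -0.25 in the series and 0.09 without P-factor. The phosphoglycerate kinase gene pgk1 changed by -0.60 ± 0.26 (adjusted p = 0.348) and the aldolase gene fba1 by -0.56 ± 0.23 (adjusted p = 0.297). The pyruvate decarboxylase genes pdc201 and pdc202 went the other way, at 0.98 ± 0.61 (adjusted p = 0.552) and 0.39 ± 0.15 (adjusted p = 0.251). On the late arrays 6 of the 18 lay wholly lower and 1, pdc202, wholly higher, where 3.24% and 3.66% of all genes did. The thioredoxin and glutathione list, which does not hold the called gene gto1, had 0 of 17 called and a median of -0.30. On it srx1, for the enzyme that restores peroxiredoxin, was at -0.87 ± 0.30 (adjusted p = 0.194). The core stress list had 0 of 26 called and a median of -0.25, with 24 of the 26 negative, including the catalase gene ctt1 at -0.56 and the metallothionein gene zym1 at -0.16, which was 0.11 with quantile normalization.

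Genes for making ribosomes and for DNA replication gave no calls either. The 114 cytosolic ribosomal protein genes had a median of 0.17, which was 0.40 in replicate 1 and -0.08 in replicate 2, and 0.43 without P-factor. The 37 genes of replication and the G1/S factor MBF had a median of 0.18. Of these, 6 lay wholly higher, where 3.66% of all genes did. Among the 6 were the cyclin gene cig2 at 0.77 ± 0.29 (adjusted p = 0.249) and the helicase subunit gene mcm4 at 0.73 ± 0.20 (adjusted p = 0.0931). Of 11 core histone genes, 9 had been called lower before, where 11.5% of all genes were. In the late window the 11 had a median of -0.19 with 0 called, and htb1 changed by -0.14 ± 0.16. Among the other lists, drawn in the plot of list medians, the largest count of called genes in one direction was 1.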

How the data were processed

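The authors deposited one value per probe for each of 32 arrays, read here as log2 ratios of Cy5 (starved) over Cy3 (growing) cells, per the labels. The sources used here state neither a log base, for which base 2 was taken by convention, nor the background correction and normalization. Of 5188 probes, 4868 matched 1 gene, 22 several and 298 none in the gene table. Probes of a gene were averaged, and each array was centred on its median (-0.154 to 0.091). Genes needed values on at least 24 arrays and on 3 of the 4 arrays on each side.

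A mean for each of 16 groups of hour and condition was fitted over all 32 arrays with limma 3.58.1 in R 4.3.3, with the array series as a random block (correlation 0.354) and Benjamini-Hochberg adjustment at 0.05. Only 2 array series lie behind each condition, so p-values measure the spread between arrays, and nothing in the labels numbers the repeats. On simulated data for the late window over 4810 genes, 89% of genes changed by 1 and 98% of those changed by 2 were recovered, and 7 of 194 calls fell on unchanged genes. There the noise was normal, 100 genes of each size changed, and each change was equal at 7 and 8 h and in both series. The data need not follow these settings, so the shares do not carry over to them. Of 38 genes that changed by at least 1 in the data, 13 were called, so a gene without a call may still have changed.

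The comparison, gene lists and naming rule were chosen with earlier results of these data known. Besides 27 measured genes of a set list, the rule named the called genes with the largest changes and, from every list, at most 4 called genes, and other named genes were chosen after their values were seen. Where a list symbol belonged to another gene it was removed. Missing values were not imputed, so urg1 lacks replicate 1 at 3 h. A description of promoter motifs was not made, since no sequences were used here.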

Additional observations from a re-analysis of the deposited data

Results flagged for a closer look

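Each of 52 genes was screened for an array standing far from the other 3 at 5 and 6 h or at 7 and 8 h with P-factor, and 6 such values were found. Chance gives about 1 in 20 groups, and each gene had 2 groups, so 6 values are about as many as chance gives. At 5 h, replicate 2 read 2.84 for gpa1 where the other arrays read 3.51 to 3.62, 2.67 for ste11 against 3.15 to 3.24, 6.31 for isp6 against 6.13 to 6.14, and 6.97 for urg1 against 5.79 to 5.98. At 7 h, replicate 2 read 3.24 for ste11 against 3.61 to 3.67. At 5 h, replicate 1 read -1.05 for sxa2 against -0.35 to -0.30. Of these 6 values, 4 fall on replicate 2 at 5 h, without which the late window called 8 genes.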

How the results depend on the processing

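The late count of 26 became 1 for 7 h alone and 2 for 8 h alone against 5 and 6 h, 0 against 6 h, 83 against 5 h, 2 with no replicate block, 15 in the 16 P-factor arrays, 3 in the 8 compared arrays, 56 with scaled and 54 with quantile-normalized arrays, and 4 to 65 over the fits without a series or an array. The 17 higher and 9 lower calls were 14 and 12 on the values as deposited, 45 and 11 scaled, and 39 and 15 under quantile normalization. It was 36 with the series as a fixed term. The difference between conditions called 1 gene scaled and 0 to 6 without a series or an array, 6 of them without replicate 1 at 5 h. Without P-factor 1 gene was called under quantile normalization and 0 to 1 without a series. The earlier count of 1530 was 866 with no replicate block, 681 and 1019 without replicates 1 and 2, and 535 against 3 and 4 h, an alternative added after seeing the data. Its split of 975 higher and 555 lower was 698 and 858 as deposited and 760 and 697 under quantile normalization, and the median of all genes went from 0.05 to -0.06 and -0.01. Without one series, 6 minus 5 h called 1 to 4 genes and 8 minus 7 h 0 to 1. Counting each named gene under each alternative, 716 stayed on their side of the threshold, 250 lost a call and 18 gained one, and no called change took the other sign. Of those with no call, 35 took the other sign, in 10 genes, among them fus1 (0.68), gpa1 (-0.12) and mam3 (0.24) without replicate 1 and hop1 (-0.39) without replicate 2. The numbers of replicates mark array series and pair no samples across conditions.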

Other observations

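Of the 17 genes called higher, 7 are among the 480 longest of 4795 genes with a length, those from 3.59 kb in the RefSeq gene spans (mor2, tor2, dbl8, sen1, mis4, tho2 and gto1). The median late change was 0.09 in the 480 and 0.03 over all 4795, and 69.4% and 55.8% of genes were above 0. Without P-factor the 480 had a median of 0.09 in the same window. None of the 9 genes called lower is among them. Among 319 tested probes without a single gene, 0 were called in the late window.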
